A study of Mus musculus with 10 samples.

Results

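Extracellular ATP and the adenosine made from it are signals that T cells both produce and sense. The genes described here are 7 that handle them: Entpd1 and Nt5e, which encode the cell-surface nucleotidases CD39 and CD73, P2rx7 and P2rx4, which encode ATP-gated ion channels, Adora2a, which encodes the adenosine A2a receptor, and Ada and Adk, which encode the adenosine-removing enzymes adenosine deaminase and adenosine kinase. They were chosen by symbol, for this function, with earlier results of these data known. All 7 were found among the 17493 genes of the expression table. All libraries came from primary T cells of C57BL/6 mice, isolated from spleen as CD4+ cells, activated with antibodies to CD3 and CD28, given IL-6 (20 ng/mL) and TGF-beta (2.5 ng/mL) and kept for 48 to 72 h. These are the cytokines that turn naive cells into Th17 cells, the IL-17-producing helper class. The treated group received TMP269, an inhibitor selective for class IIa histone deacetylases, the family of HDAC4 and HDAC7, and the control group was labelled DMSO. Each group had 2 RNA libraries. Neither its dose nor its exposure time is given in the sources used here. The labels also name no animal or culture for a replicate, so the p-values cover only how far these samples vary, and that variation may be technical.

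ATP that leaves stressed or activated cells opens P2X channels, which let calcium and sodium in and potassium out. P2X4 responds to low ATP concentrations, whereas P2X7 needs far more ATP and, when held open, can drive membrane pores, inflammasome activation in myeloid cells and death of T cells. C57BL/6 mice carry a P2X7 variant with reduced pore activity. CD39 strips ATP and ADP to AMP, and CD73 turns AMP into adenosine, a pair of steps known from regulatory T cells and from Th17 cells with suppressive function. Adenosine acts on T cells mainly through the A2a receptor, which raises cAMP and dampens activation. It is removed by deamination to inosine through adenosine deaminase or by phosphorylation to AMP through adenosine kinase.

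The libraries held 20007042 to 25321455 reads. Ribosomal RNA gene Rn45s took 0.716% to 1.12% of reads in 3 libraries and 2.20% in DMSO replicate 2, which stood apart. Pan-T-cell markers were abundant in all libraries (1 of 8 genes called higher, summed level 55879 and 60730 normalised reads with DMSO, 62844 and 64315 with TMP269), and so were Th17 genes (8 genes, 31388 and 33619 against 29666 and 30172, 2 called higher and 3 lower). The genes called lower were Il17a and Il17f, the signature cytokines, and Ccr6. Of 5 regulatory T cell markers 2 were called higher and 1 lower, with summed levels of 85541 and 90992 against 89174 and 91193 that were mostly Il2ra, which was not called. Foxp3, the factor that defines regulatory T cells, was at 355 and 286 against 441 and 450.2 normalised reads, 0.48 higher on the log2 scale (limma adjusted p = 0.0272), a call lost on leaving out DMSO replicate 2 (0.149) or TMP269 replicate 2 (0.0577). Ikzf2 was at 346 and 315 against 501 and 519 (1.54-fold, limma adjusted p = 0.00503), and Ctla4, which activated T cells also express, was the gene called lower (0.742-fold, limma adjusted p = 0.00717, and 0.0588 without TMP269 replicate 1). The B cell list was detected throughout, with none of its 11 genes at 0. Of these genes 8 were called lower and 0 higher, and their summed level was 5074 and 5241 normalised reads with DMSO and 2793 and 2839 with TMP269. The macrophage and monocyte list (10 genes found, 4 tested, 1 called higher) was low, at 145 and 133 against 331 and 395, and most of that was the called gene Cd68, a lysosomal gene that is not restricted to macrophages, at 97.2 and 83.2 against 263 and 299 normalised reads (3.09-fold, limma adjusted p = 0.000485). The other 9 genes summed to 47.7 and 49.5 against 68.2 and 95.9 normalised reads, with Marco at 0 in both DMSO libraries. Dendritic cell markers summed to 330.2 and 419 against 203 and 225, where 1 of 4 tested genes was called lower and Clec9a was at 0 in both DMSO libraries. The called gene was Flt3, at 214 and 303 against 69.3 and 57.9 normalised reads, while Itgax, at 28.8 and 20.5 against 41.3 and 46.5, and Xcr1, at 12.6 and 10.9 against 19.6 and 29.4, were higher in both TMP269 libraries and not called (limma adjusted p = 0.0709 and 0.0893). Itgax was called on leaving out DMSO replicate 1 (0.0381). CD8 T cell (3 tested), NK cell (2 tested) and endothelial and stromal (3 tested) markers had no called gene, and neutrophil, mast cell and erythroid markers were too low to test. In bulk RNA, fewer cells of a type and less RNA per cell cannot be told apart. The part of other cell types in the results on the 7 genes was not tested.

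Among the 7 genes, the 3 receptor genes P2rx7, P2rx4 and Adora2a rose with TMP269 by 0.59 to 0.71 on the log2 scale, Ada fell to 0.741-fold, and Entpd1, Nt5e and Adk were not called. Values are normalised reads, that is, reads divided by the authors' size factor for the library, and a gene was called at a limma adjusted p under 0.05 over all 12535 tested genes. By that rule 27.5% of tested genes were called, 12.8% higher and 14.7% lower, so the 3 rises and 1 fall among 7 genes stand in a table where calls were common. The shares called were 27.2% with edgeR and TMM factors and 22.9% with DESeq2. The median log2 fold change was 0.19 for the 7 genes and near 0 for all tested genes. In 5 of the 7 genes both TMP269 libraries lay on one side of both DMSO libraries, a separation that 66.6% of tested genes showed (32.6% higher and 34% lower). All 7 genes passed the filter on low values, and each was covered by 223 to 1313 whole reads per library, which gives a counting error of 6.7% at the lowest and 2.76% at the highest.

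**Figure D1:**
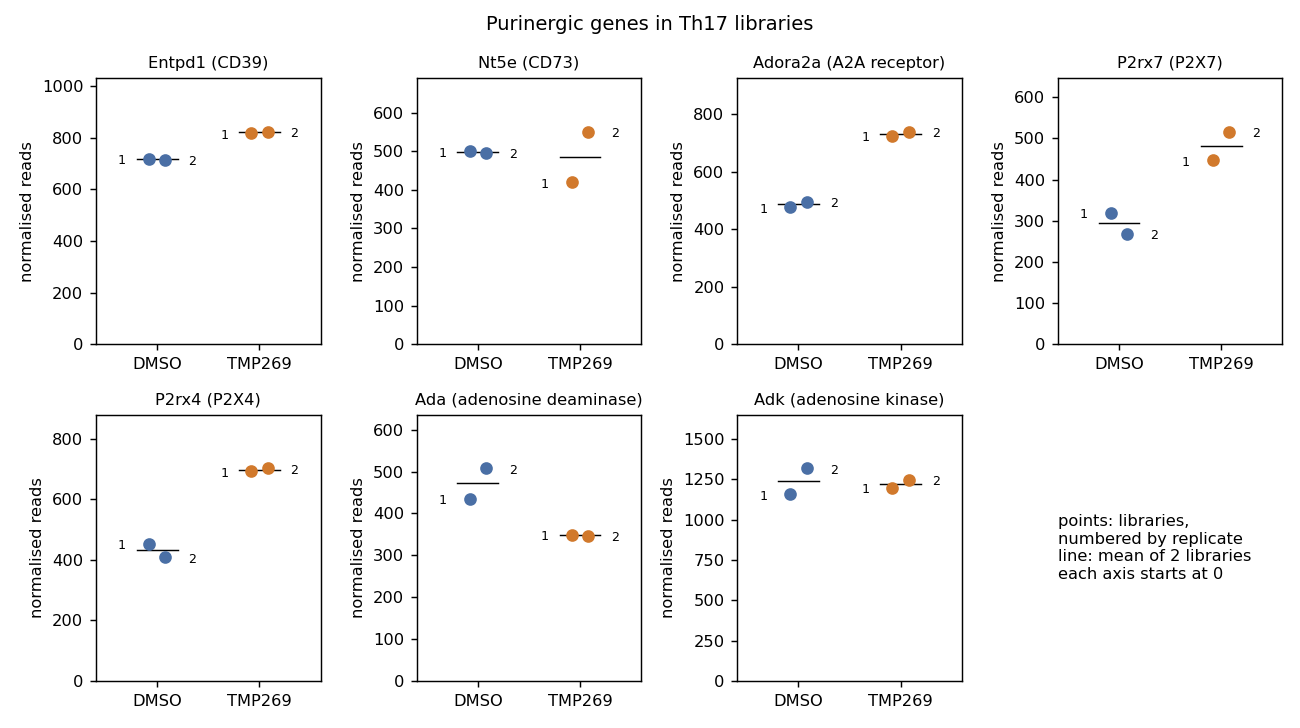
Normalised reads (y axis, starting at 0 in every panel) of the 7 genes in the 2 DMSO and 2 TMP269 libraries; points are libraries numbered by replicate and lines are group means. The groups separate upward for Entpd1, Adora2a, P2rx7 and P2rx4, separate downward for Ada, and overlap for Nt5e and Adk.

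P2rx7, the channel for high ATP, was at 319 and 269 normalised reads in DMSO replicates 1 and 2 and at 447 and 517 in TMP269 replicates 1 and 2. Both TMP269 libraries were higher than both DMSO libraries, and the gap between the groups was wider than the spread within either. The log2 fold change was 0.71 ± 0.14 (SE), or 1.64-fold with a 95% interval of 1.32 to 2.02 (limma adjusted p = 0.00625). P2rx4, the channel for low ATP, was at 453 and 408 normalised reads with DMSO and at 693 and 702 with TMP269. The TMP269 pair was nearly level and lay well above the DMSO pair. Its log2 fold change was 0.70 ± 0.10 (SE), or 1.62-fold with a 95% interval of 1.37 to 1.91 (limma adjusted p = 0.00245). Both channel genes stayed called whichever of the 4 libraries was left out. In the same libraries the macrophage and monocyte markers summed to 145 and 133 against 331 and 395 normalised reads, of which Cd68, called higher, made up most. The other 9 of them summed to at most 95.9. Of those, Csf1r (-0.18 on the log2 scale), Itgam (-0.23) and Fcgr3 (1.10) were tested, at low levels, and not called. The part of the macrophage and monocyte markers in these rises was not tested. For P2rx7 the call was lost only in limma without the mean-variance trend (adjusted p = 0.0554), where calls over the whole table fell to 1063.

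The channel genes changed by close to the same amount. Relative to the DMSO mean, the log2 ratio of P2rx7 to P2rx4 was 0.05 and -0.05 in the DMSO libraries and -0.08 and 0.11 in the TMP269 libraries, so the ratio moved up in one treated library and down in the other. P2rx7 and P2rx4 are next to each other among protein-coding genes of mouse chromosome 5 in the RefSeq annotation (GRCm38). The genes that flank the pair were not called. Ift81, a transport gene of cilia, was at 98.1 and 121 against 100.3 and 107 normalised reads (limma adjusted p = 0.816), and Camkk2, a calcium-dependent kinase gene, was at 1174 and 1297 against 1128 and 1003 (log2 fold change -0.21, limma adjusted p = 0.132). Camkk2 overlaps P2rx4 in that annotation, and how the counting treated reads in the overlap is not given in the sources used here, so the count of P2rx4 is uncertain to that extent. Of the other flanking genes of the 7 that could be tested, namely Tctn3, Snx14, Specc1l, Upb1, Pkig, Ap3m1 and Kat6b, 0 were called by limma.

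The sequences before the start sites of both channel genes are shown because these neighbours rose together, and that of Ada because it was the gene that fell. Each is the 250 bases before an annotated start, from RefSeq (GRCm38.p6), read 5′ to 3′ on the gene's strand, with matches to the searched motifs in capitals.
P2rx7, first start, chr5:122643677-122643926, plus strand: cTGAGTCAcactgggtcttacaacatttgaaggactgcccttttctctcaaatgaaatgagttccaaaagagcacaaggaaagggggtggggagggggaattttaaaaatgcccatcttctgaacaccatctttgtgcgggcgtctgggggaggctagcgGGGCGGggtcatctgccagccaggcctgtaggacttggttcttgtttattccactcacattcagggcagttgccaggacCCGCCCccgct
P2rx4, chr5:122707294-122707543, plus strand: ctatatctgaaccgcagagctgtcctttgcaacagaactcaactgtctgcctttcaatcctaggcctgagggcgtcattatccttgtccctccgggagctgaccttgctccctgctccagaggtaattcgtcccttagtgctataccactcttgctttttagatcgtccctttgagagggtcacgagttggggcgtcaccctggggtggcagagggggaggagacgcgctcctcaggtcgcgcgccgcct
Ada, chr2:163750240-163750489, minus strand: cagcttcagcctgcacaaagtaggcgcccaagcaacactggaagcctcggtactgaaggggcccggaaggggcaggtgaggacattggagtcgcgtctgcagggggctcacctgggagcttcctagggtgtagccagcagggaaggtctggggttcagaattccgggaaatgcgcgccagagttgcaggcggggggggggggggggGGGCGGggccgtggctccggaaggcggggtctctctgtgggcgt

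The motifs were searched on both strands over 300 bases, 250 before and 50 after the start, in 9 windows that matched 6 of the 7 genes. Adora2a had no window and was not searched. The window of the first P2rx7 start held the AP-1 motif TGANTCA 249 bases before the start, a motif found in 7.81% of all 32851 promoter windows, and the GC box GGGCGG at 90 bases and, on the other strand, at 11 bases before the start. The window of the second P2rx7 start, not printed, held no match to any of the motifs. The P2rx4 window held a single GC box, at base 20 after the start, and so has no capitals above. The Ada window held GC boxes 44 bases before and at base 6 after the start, and GCGTG, the core bound by the aryl hydrocarbon receptor, at bases 2 and 42 after it. Over the 9 windows, 6 held a GC box (35.7% of all windows), 4 held GCGTG (32.4%) and 1 held TGANTCA. The 6 with a GC box, both Adk windows among them, were 53.3% to 75% G and C. The median over all windows was 52.7%, so the shares are not between windows of like base content. The hypoxia factor core ACGTG (19.6% of all windows), which shares all but its first letter with GCGTG, was in none of the 9 windows. Nor was the cAMP response element TGACGTCA (1.79%). For MEF2 a single frame was searched, with fixed outer letters and any bases in the middle (3.69%), and it too was in none. Sites of MEF2 with other outer letters were not searched for, so whether the windows hold MEF2 sites was not settled. A match describes letters only.

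Adora2a, the receptor through which adenosine raises cAMP in T cells, was at 477 and 496 normalised reads with DMSO and at 725 and 739.9 with TMP269. Each pair was tight, and the groups did not overlap. The log2 fold change was 0.59 ± 0.10 (SE), with a 95% interval of 0.37 to 0.81 (limma adjusted p = 0.00358), and the gene was called under all 16 other settings of the analysis. The other adenosine receptor genes did not share this call. Adora2b, the low-affinity receptor that also raises cAMP, was at 125 and 100.1 against 80.6 and 69.3 normalised reads, which gave -0.58 ± 0.21 (SE) on the log2 scale and no call (limma adjusted p = 0.0679). Adora3 was at 31.5 and 13.3 against 19.6 and 10.4 normalised reads (limma adjusted p = 0.493). Adora1 had too few reads to test. The difference in change between Adora2a and Adora2b was not tested. Among regulatory T cell markers in the same libraries, Foxp3 and Ikzf2 were called higher and Ctla4 lower. Il2ra and Tnfrsf18 were not called. The part of these markers in the rise of Adora2a was not tested.

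Entpd1, whose product CD39 takes the first step from ATP to adenosine, was at 718 and 715 normalised reads with DMSO and at 817 and 823 with TMP269. The libraries of each group were almost level and the groups did not overlap, but the change was small. Its log2 fold change was 0.19 ± 0.09 (SE), or 1.14-fold with a 95% interval of 0.994 to 1.32, and it was not called (limma adjusted p = 0.137). With libraries scaled to equal totals the log2 fold change of Entpd1 was 0.30 (limma adjusted p = 0.0459), in a scaling that moved the median of all tested genes to 0.10. The rises of Foxp3 and Ikzf2 and the fall of Ctla4, all regulatory T cell markers, stand beside the levels of Entpd1 too. The part of these markers was not tested. Nt5e, whose product CD73 makes adenosine, was at 500.3 and 496 normalised reads with DMSO and at 419.6 and 551 with TMP269. The treated libraries lay on either side of the controls. The log2 fold change was -0.05 ± 0.14 (SE), with a 95% interval of -0.36 to 0.26 (limma adjusted p = 0.811). Nt5e turned with the library left out, to 0.15 without TMP269 replicate 1 and -0.25 without TMP269 replicate 2, and was 0.05 with equal library totals, in no case called.

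Ada, the deaminase gene, was at 435 and 508 normalised reads with DMSO and at 349 and 347 with TMP269. The treated libraries were level with each other and below both controls. The log2 fold change was -0.43 ± 0.12 (SE), or 0.741-fold with a 95% interval of 0.613 to 0.895 (limma adjusted p = 0.0282). The call was lost on leaving out any 1 of 3 libraries, with a limma adjusted p of 0.169 without DMSO replicate 2, 0.0634 without TMP269 replicate 1 and 0.0661 without TMP269 replicate 2. It was also lost with DESeq2 (0.0588) and with equal library totals (0.0675), and the log2 fold change stayed between -0.54 and -0.32 over all 16 settings. Adk, the kinase gene of the other route, was at 1159 and 1319.5 normalised reads with DMSO and at 1198 and 1247 with TMP269, so the treated libraries lay between the controls. Its log2 fold change was -0.02 ± 0.09 (SE), with a 95% interval from 0.854-fold to 1.14-fold (limma adjusted p = 0.908). Relative to the DMSO mean, the log2 ratio of Ada to Adk was -0.02 and 0.02 in the DMSO libraries and -0.38 and -0.45 in the TMP269 libraries. Of the 11 B cell markers, 8 were called lower in the same libraries, and their part in the fall of Ada was not tested.

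**Figure D2:**
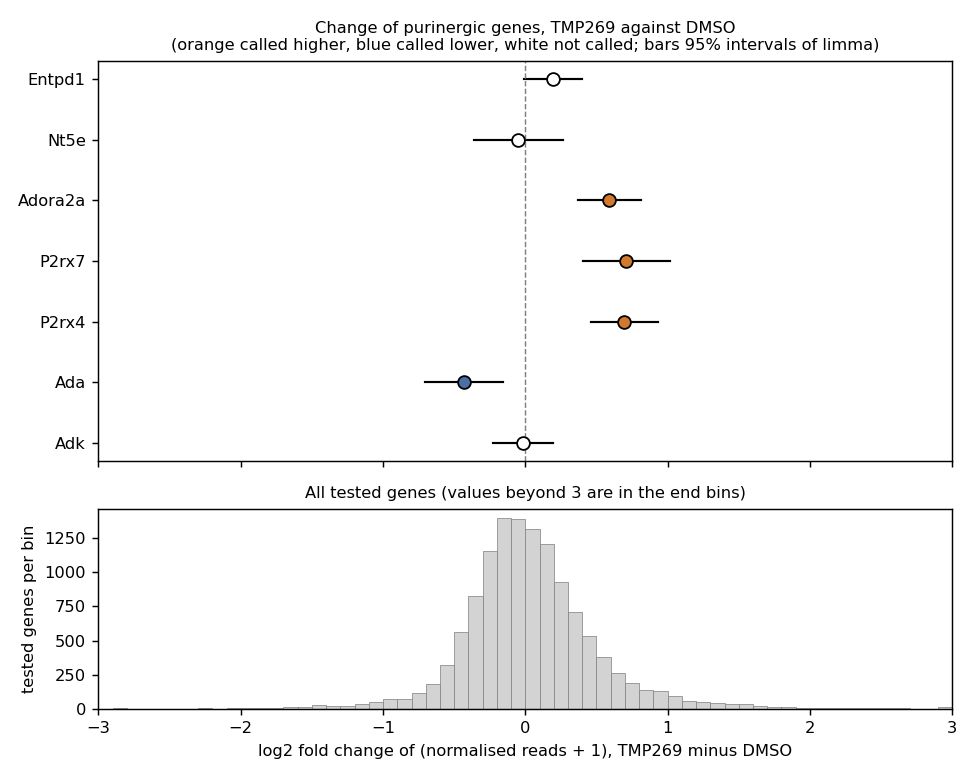
Top, log2 fold change of each of the 7 genes (x axis, TMP269 minus DMSO) with its 95% interval from limma; bottom, the number of tested genes in each bin of the same axis. The intervals of Adora2a, P2rx7 and P2rx4 lie above 0 and that of Ada below it, while those of Entpd1, Nt5e and Adk include 0.

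Within the table as a whole, the changes of the receptor genes were in the upper part of the range without being extreme. A larger rise than that of P2rx7 was seen in 6.85% of tested genes, than that of P2rx4 in 7.13% and than that of Adora2a in 9.44%. A larger fall than that of Ada was seen in 10.5%. P2rx4 had the smallest p of the 7, and the genes with the profile most like it over the 4 libraries were Plk2, a polo-like kinase gene, Rnf169, a ubiquitin ligase gene, and Nlrc5, an activator of MHC class I genes. They were the nearest by Euclidean distance between centred log2 values (0.03, 0.03 and 0.04) among 9903 genes with a mean of at least 100 normalised reads. Nlrc5 went from 4437 and 3987 to 6891 and 6716 normalised reads, 1.62-fold as P2rx4. By the same distance 102 genes were nearer to P2rx4 than P2rx7 was, and 163 were nearer than Adora2a, so many genes of this table were as like P2rx4 as the other receptor genes were.

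The other genes of the pathway were taken from 8 lists with 113 entries, of which 93 were tested, 9 were called higher and 19 lower. These 28 calls are 30.1% of the tested entries, near the 27.5% of the whole table. Of the 28, 11 stayed called whichever library was left out and 17 lost the call for at least 1 library left out.

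**Figure D3:**
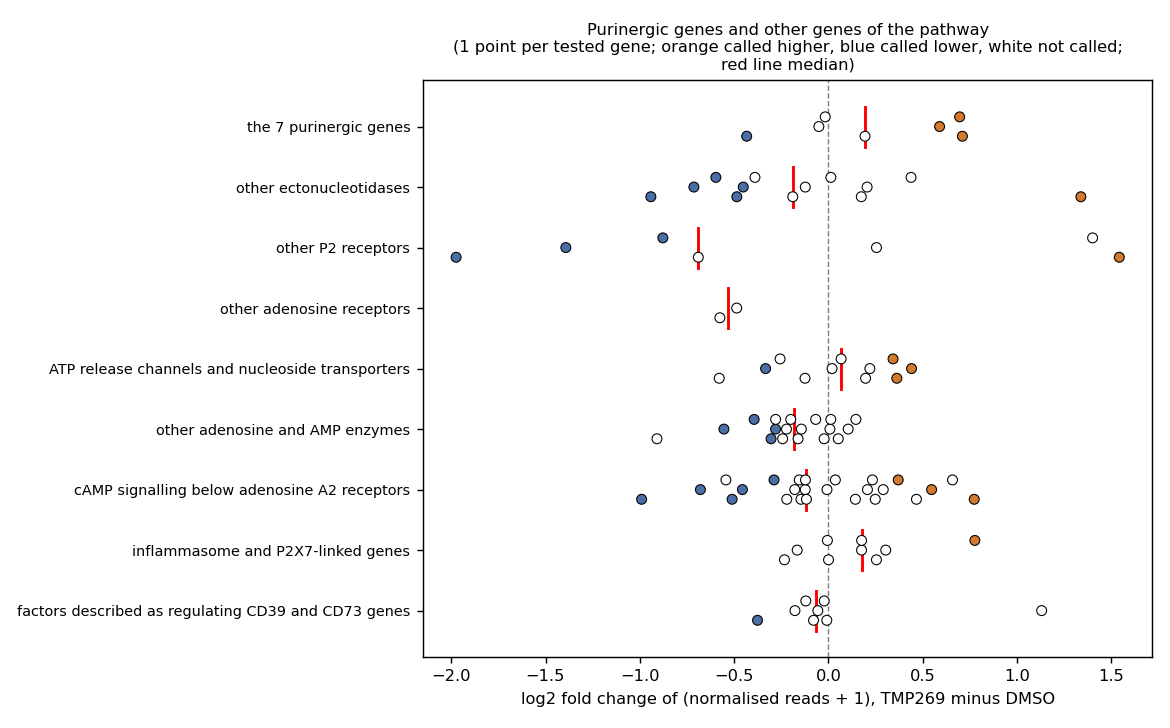
Log2 fold change (x axis, TMP269 minus DMSO) of each tested gene in the 7-gene set and in 8 lists of related genes (rows); filled points are called genes and red lines are list medians. Called genes lie on both sides of 0, and the widest spread is among the other P2 receptors, from -1.97 to 1.54.

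Among other enzymes that act on nucleotides or related phosphate esters, most of them outside or on the cell, 1 of 13 tested genes rose and 5 fell (median log2 fold change -0.19). Entpd4, a nucleotidase of the Golgi and lysosome rather than the surface, was at 2560 and 2535 normalised reads with DMSO and at 1671 and 1697 with TMP269, a fall to 0.661-fold (limma adjusted p = 0.00119). Alpl, the tissue-nonspecific alkaline phosphatase that can also strip phosphate from AMP, was at 170.1 and 200.2 against 98.2 and 93.1 and fell to 0.521-fold (limma adjusted p = 0.00513). Enpp5, a member of the pyrophosphatase and phosphodiesterase family, rose 2.53-fold from low levels, 18.9 and 18.1 against 45.5 and 51.3 normalised reads (limma adjusted p = 0.0104, and 0.0592 without TMP269 replicate 2). The other called genes, named after their values were seen, were Entpd5 (0.731-fold), Enpp1, which makes AMP from ATP (0.714-fold), and Enpp2, which encodes autotaxin (0.610-fold). Without DMSO replicate 2 or TMP269 replicate 1 the list had 2 called lower. The adjusted p without these libraries was 0.0688 and 0.107 for Entpd5, 0.0734 and 0.176 for Enpp1, and 0.0793 and 0.0839 for Enpp2, and that of Enpp1 was 0.0951 without DMSO replicate 1. With DESeq2 Enpp1 was not called (0.0870). Without TMP269 replicate 2 there were 0 called higher. Cd38, whose product consumes NAD, was at 264 and 286 against 228 and 192 normalised reads and was not called (limma adjusted p = 0.0774).

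Of 7 other P2 receptor genes tested, 1 rose and 3 fell (median log2 fold change -0.69). P2ry1, an ADP receptor gene, was at 64.8 and 30.2 normalised reads with DMSO and at 158 and 108 with TMP269, a rise of 2.91-fold (limma adjusted p = 0.0128). Its DMSO libraries differed by more than those of the other genes in the list that were called. P2ry14, a receptor gene for UDP-sugars, was at 119 and 146 against 51.7 and 47.5 normalised reads and fell to 0.381-fold (limma adjusted p = 0.00232). P2ry12, an ADP receptor gene, was at 39.6 and 35.0 against 11.4 and 6.65 and fell to 0.255-fold (limma adjusted p = 0.00698). P2ry13, a further ADP receptor gene and named after its values were seen, was called at 0.544-fold (limma adjusted p = 0.0480), and the call was lost whichever library was left out (0.137 and 0.0834 without DMSO replicates 1 and 2, 0.0789 and 0.198 without TMP269 replicates 1 and 2) and with DESeq2 (0.207). Beside P2rx7 and P2rx4, the P2X genes P2rx3 and P2rx5 were tested. P2rx5 was at 4.50 and 3.62 against 14.5 and 10.4 normalised reads and P2rx3 at 24.3 and 10.9 against 12.4 and 7.60, and neither was called (limma adjusted p = 0.0707 and 0.332). In the same libraries 8 of 11 B cell markers were called lower, and their part in the falls of P2ry12, P2ry13 and P2ry14 was not tested.

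Genes for ATP release and nucleoside transport gave 3 called higher and 1 lower of 11 tested (median log2 fold change 0.07). Lrrc8c and Lrrc8d, subunits of the volume-regulated anion channel, rose 1.36-fold and 1.29-fold, with Lrrc8c at 2252 and 2634 against 3086 and 3543 normalised reads (limma adjusted p = 0.0143 and 0.0212). Slc29a1, which encodes the plasma membrane adenosine transporter ENT1, was at 2339 and 2415 against 2010.3 and 1770.4 normalised reads and fell to 0.794-fold (limma adjusted p = 0.0225). Slc29a3, an intracellular nucleoside transporter gene named after its values were seen, rose 1.27-fold (limma adjusted p = 0.0244). Without TMP269 replicate 2 the list had 0 called genes, with adjusted p of 0.0511 for Lrrc8c, 0.0639 for Lrrc8d, 0.177 for Slc29a1 and 0.0611 for Slc29a3. Without DMSO replicate 1 it was 0.0855 for Lrrc8d and 0.0626 for Slc29a3, without DMSO replicate 2 it was 0.0785 for Slc29a1 and 0.0683 for Slc29a3, and without TMP269 replicate 1 it was 0.142 for Slc29a3. With equal library totals the Slc29a1 fall was not called (0.102). Panx1, the pannexin channel through which T cells release ATP, was at 1378 and 1162 against 1207 and 1116 normalised reads (limma adjusted p = 0.398).

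Among 18 tested genes listed with the adenosine and AMP enzymes beside Ada and Adk, 0 rose and 4 fell (median log2 fold change -0.18). The list also held genes of other nucleotide steps, such as Hprt and Samhd1, and Dpp4. Its falls are therefore not all of adenosine or AMP enzymes. Hprt, the purine salvage gene for hypoxanthine and guanine, was at 5296 and 6119 normalised reads with DMSO and at 3686 and 4078 with TMP269, a fall to 0.681-fold (limma adjusted p = 0.00423). Nt5c3, a cytosolic nucleotidase gene, was at 732 and 837 against 576 and 616 and fell to 0.761-fold (limma adjusted p = 0.0246). Nt5c (0.823-fold) and Ahcy, which splits S-adenosylhomocysteine to adenosine (0.810-fold), were the other called genes and were named after their values were seen. The list had 1 called lower without DMSO replicate 2 or TMP269 replicate 1 and with equal library totals, where Hprt was left. The adjusted p values under these were 0.142, 0.099 and 0.0598 for Nt5c3, 0.114, 0.130 and 0.106 for Nt5c, and 0.153, 0.261 and 0.0814 for Ahcy, and without TMP269 replicate 2 they were 0.104 for Nt5c and 0.0818 for Ahcy. With DESeq2 Nt5c narrowly missed the threshold. Pnp, which acts after adenosine deaminase in the breakdown of inosine, was at 1540.4 and 1704 against 1544 and 1648 normalised reads (limma adjusted p = 0.869), and Dpp4, which encodes the surface protein CD26, was at 738 and 731 against 617 and 593 (limma adjusted p = 0.0551).

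The genes of cAMP signalling, the route below the A2a receptor, moved both ways, with 3 of 25 higher and 5 lower (median log2 fold change -0.12). Crem, a cAMP-responsive repressor gene that is itself induced by cAMP, was at 3959 and 4039 normalised reads with DMSO and at 2346 and 2659 with TMP269, a fall to 0.625-fold (limma adjusted p = 0.00118). Pde4b, a cAMP-degrading phosphodiesterase gene, was at 1285 and 1211 against 852 and 899 and fell to 0.702-fold (limma adjusted p = 0.00417). The regulatory subunit genes of protein kinase A Prkar2a and Prkar2b fell to 0.729-fold and 0.503-fold, and Pde4d fell to 0.819-fold. These 3 were named after their values were seen. Akap13, an anchoring protein gene, rose 1.29-fold and Prkar1b, a further regulatory subunit gene, 1.71-fold from 69.3 and 48.2 normalised reads (limma adjusted p = 0.0166 and 0.0404). Adcy9, an adenylyl cyclase gene named after its values were seen, rose 1.46-fold (limma adjusted p = 0.0420). Akap13, Prkar1b and Adcy9 all lost the call without DMSO replicate 2 and without TMP269 replicate 1. In each of these fits a gene of the list not called as reported was called higher instead. The adjusted p was 0.0787, 0.0544 and 0.106 for Akap13 without DMSO replicate 2, TMP269 replicate 1 and TMP269 replicate 2. With DESeq2 neither Prkar1b (0.115) nor Adcy9 (0.116) was called. The limma adjusted p was 0.190 and 0.152 for Prkar1b without DMSO replicate 2 and TMP269 replicate 1, and 0.0538, 0.146 and 0.264 for Adcy9 without DMSO replicate 1, DMSO replicate 2 and TMP269 replicate 1. Pde4d lost its call whichever library was left out (0.052, 0.0688, 0.154 and 0.0657 without DMSO replicates 1 and 2 and TMP269 replicates 1 and 2) or with equal totals (0.101), whereas Crem, Pde4b, Prkar2a and Prkar2b were called without each. With equal totals 6 genes of this list were called higher and 4 lower.

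In the inflammasome and P2X7-linked list 1 of 9 tested genes rose and 0 fell (median log2 fold change 0.18). Gsdmd, which encodes the pore-forming protein gasdermin D, was at 616 and 552 normalised reads with DMSO and at 1075 and 931 with TMP269, a rise of 1.71-fold (limma adjusted p = 0.00184) that stayed called whichever library was left out. The sensor gene Nlrp3 was at 20.7 and 12.1 against 10.3 and 17.1 normalised reads, and Il1b, at most 15.3 normalised reads, was too low to test. Without DMSO replicate 1 or TMP269 replicate 1, and with equal totals, 2 genes of the list were called higher.

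Of 8 factors described as regulating Entpd1 or Nt5e, 0 rose and 1 fell. Ahr, the aryl hydrocarbon receptor, was at 4673 and 5454 normalised reads with DMSO and at 3514 and 4307 with TMP269, a fall to 0.771-fold (limma adjusted p = 0.0393) that was lost without DMSO replicate 2 (0.166), without TMP269 replicate 1 (0.246) and with equal totals (0.088). Gfi1, a repressor described as acting on both genes in Th17 cells, was at 521 and 221 normalised reads with DMSO and at 1163 and 476 with TMP269. Replicate 1 was far above replicate 2 in both groups, and TMP269 replicate 2 lay below DMSO replicate 1. Its log2 fold change was 1.13 ± 0.44 (SE) and it was not called (limma adjusted p = 0.0857). The log2 fold change of Gfi1 was 1.75 without DMSO replicate 1 and 1.77 without TMP269 replicate 2. It was 0.51 without DMSO replicate 2 and 0.49 without TMP269 replicate 1. In such fits limma draws the variance of a gene largely from other genes. That limit holds for all genes named here, and for Gfi1 only the log2 fold changes are given. Hif1a and Stat3 were not called (limma adjusted p = 0.445 and 0.160).

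**Figure D4:**
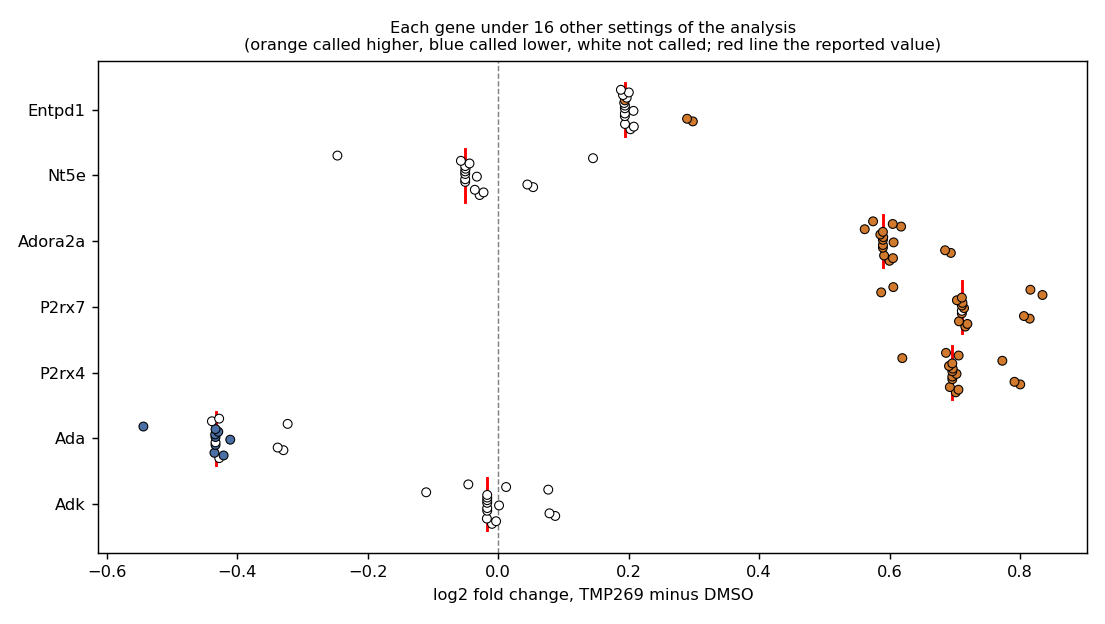
Log2 fold change (x axis, TMP269 minus DMSO) of the 7 genes under 16 other settings of the analysis; each point is a setting, filled where the gene was called, and red lines mark the reported values. Adora2a and P2rx4 are filled in all 16 settings, P2rx7 in 15, Ada in 9, Entpd1 in 3, and Nt5e and Adk in none, with points on both sides of 0 for the last pair.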

How the data were processed

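Polyadenylated RNA was sequenced, per the labels' protocols. The deposited values are a normalised signal. The values of each library are read counts that the authors divided by 1 size factor, read from the values themselves: 100% came within 1e-06 of a whole read. The build mm9 and the tools TopHat2 2.1.0, Bowtie2, CASAVA 1.4, DESeq2 and HTSeq are named, without roles, per the submitters' processing notes. Annotation, strand setting and the handling of multiply matching reads: not given in the sources used here. Totals were 20007042 to 25321455 recovered reads. The table matched libraries by column names in the sample descriptions. The series also holds 6 chromatin immunoprecipitation and input libraries, not analysed here.

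Tests used limma (3.58.1, R 4.3.3) with its trend option and log2(value + 1), on genes with at least 10 in at least 2 libraries, adjusted by Benjamini-Hochberg over all 12535 tested genes, two-sided, without covariates; intervals are limma's 95% intervals. The log scale understates changes of low genes. An exact test of 2 against 2 cannot go below p = 0.333. The method was tested on simulated data, with the same noise setting for all genes and independent libraries. That simulation does not cover noise that differs between genes or is shared by replicates of the same number. Replicate pairs differed by more than sampling noise (chi-square per degree of freedom 21.9 for DMSO and 11.3 for TMP269). The count test, edgeR (4.0.16) on recovered reads, called 3406 genes, DESeq2 (1.42.0) 2866. Other alternatives were pseudocounts of 0.5 and 5, other filters, limma-voom, no trend, equal library totals with or without Rn45s, thresholds of 0.01 and 0.1, the replicate block, and leaving out each library, which leaves a single library whose variation is taken from the other group.

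The 7 genes and the lists were chosen with earlier results of these data known. The rule for other names was up to 2 called genes in each direction per list by smallest p, the 3 genes nearest in profile to the member with the smallest p, and flanking genes. Genes named without a call, and those so marked, were chosen after their values were seen. The GC box was added to the motifs after the sequences were read. RefSeq promoters (GRCm38.p6) were matched by symbol.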

Additional observations from a re-analysis of the deposited data

How the results depend on the processing

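P2rx7, P2rx4 and Adora2a kept their direction and P2rx4 and Adora2a their call under all 16 alternatives, and so did P2rx7 except in limma without the mean-variance trend (log2 fold change 0.71, adjusted p = 0.0554). Ada kept its direction but was no longer called with DESeq2 (-0.43), equal library totals (-0.33), equal totals without Rn45s (-0.34) and limma without the trend (-0.43), and its log2 fold change ran from -0.54 to -0.32 with a library left out. Entpd1 was called with equal totals (0.30), with equal totals without Rn45s (0.29) and with the replicate block (0.19, adjusted p = 0.0295). The count of the 7 genes called lower was then 0 with DESeq2, both equal-total scalings, limma without the trend and a threshold of 0.01, and 0 to 1 with a library left out, against 1 as reported. Over all tested genes the 3448 calls became 1063 without the trend, 6360 with the replicate block, 1487 at a threshold of 0.01 and 2078 to 3675 with a library left out. Higher genes made up 46.5% of calls as reported and 67.3% with equal totals. Replicate numbers are shared by the groups but nothing in the labels ties them to a common animal or day. The differences between replicates 1 and 2 correlated across genes between the groups (r = 0.371), and the block is given here only. Besides Entpd1 it gave a call to 13 other genes named without one (Adora2b, Camkk2, Cd38, Dpp4, Gfi1, Itgax, Kat6b, P2rx5, Pkig, Specc1l, Stat3, Tctn3 and Xcr1), among them Gfi1 at an adjusted p of 4.84e-10, and 0 named genes lost theirs. The causes of these changes were not tested. The prior degrees of freedom of limma, which set how much variance is shared from other genes, were 6.84 as reported and 20.6 with the block. They were 10.4 without either DMSO replicate, 61.5 without TMP269 replicate 1 and 48.4 without TMP269 replicate 2. P-values are therefore not on an equal footing between these fits. Counting error for the 7 genes was at most 6.7% per library.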
